A study of Mus musculus with 6 samples.

Results

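The SOX family of transcription factors was examined in 6 mouse medulloblastomas, tumours of the cerebellum, as 10 genes of 4 subfamilies: Sox1, Sox2, Sox3 and Sox21 of the SoxB genes, Sox4 and Sox11 of the SoxC genes, Sox5 and Sox6 of the SoxD genes, and Sox8 and Sox9 of the SoxE genes. The rule lists the genes by name, and the list was made with earlier results of these data known. Each was represented by its array feature with a single platform symbol and the highest mean over all arrays, and all 10 were measured among 22180 genes tested. In 3 tumours (Math1Cre::CrebbpFl/FlSmoM2Fl/+) both copies of Crebbp, which encodes a histone acetyltransferase, were floxed, and in the other 3 (Math1Cre::SmoM2Fl/+) Crebbp was wild type. Both groups carried 1 allele of SmoM2, an oncogenic Smoothened mutant that keeps Sonic hedgehog signalling on, and the series text names the recombinase Math1CreERT2, a tamoxifen-dependent Cre under Math1 (Atoh1) control. Tamoxifen (1 mg) was injected on postnatal day 5 in both groups, and tissue was taken on day 60. Recombination was thus directed to Math1-expressing granule neuron progenitors, while other cells in the tumour tissue keep their Crebbp. Whether tumours within a group came from different animals is not stated, so the p-values cover only the spread among these arrays, which may be technical.

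SOX proteins bind DNA through a shared high mobility group box and are read as a succession in neural development. SOXB1 proteins hold neural progenitors undifferentiated, the SOXB2 protein SOX21 counteracts them, SOXC proteins act in cells that leave the progenitor state and switch on neuronal genes, SOXE proteins direct glial fates, and SOXD proteins, which lack a transactivation domain, modulate the others. In the cerebellum Sox2 and Sox9 mark glia, including Bergmann glia, and in SHH medulloblastoma of mice Sox2 also marks a small population of stem-like tumour cells, while Sox4 and Sox11 are abundant in granule neuron progenitors and young neurons.

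All values are log2 levels from the authors' RMA processing, and a difference of 1 on this scale is a 2-fold difference. Changes are knockout minus wild type with the standard error (SE) of the limma fit, and adjusted p is its two-sided p after Benjamini-Hochberg adjustment over all genes. The SD is over 3 arrays, each taken here as 1 tumour, and that number limits the precision. Crebbp averaged 11.26 ± 0.07 in knockout and 11.76 ± 0.05 in wild type tumours (SD, n = 3 each), with non-overlapping groups and an adjusted p of 0.0948. The exons that were deleted are not named in the labels, so the feature may also read exons that remain. The arrays also differed in sex-linked transcripts. Xist averaged 12.34 in knockout and 5.44 in wild type tumours, and the Y-linked Kdm5d, Eif2s3y and Uty averaged 4.70, 5.36 and 4.73 in knockout and 9.34, 10.11 and 9.64 in wild type tumours. Genotype and sex therefore cannot be told apart in any comparison given here. These 4 genes in the group that lacks them gave 12 values between 4.31 and 5.74. The feature of the Y-linked Sry read higher in knockout tumours, 6.39 to 6.45. The 60 values of the 10 Sox genes lay between 7.21 and 12.02, lowest for Sox3. In tissue RNA, fewer cells of a type and less RNA per cell cannot be told apart.

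None of the 10 Sox genes passed an adjusted p of 0.05, a threshold that 0.207% of all genes passed. The nearest to it were Sox11, which was lower in all 3 knockout tumours, and Sox2, which was higher in all 3. Sox4 was also lower in every knockout tumour, so that 3 of the 10 genes had groups that did not overlap, beside 19.6% of all genes (10.2% higher and 9.43% lower in knockout). At an unadjusted p under 0.05 there were 4 genes, Sox2, Sox3, Sox4 and Sox11, beside 13.8% of all genes. In sign, 2 changes were positive and 8 negative, with a median of -0.19 and a range of -0.57 to 0.45, while the median over all genes was 0.00. The adjusted p of the 10 genes ran from 0.149 to 0.979.

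**Figure D1:**
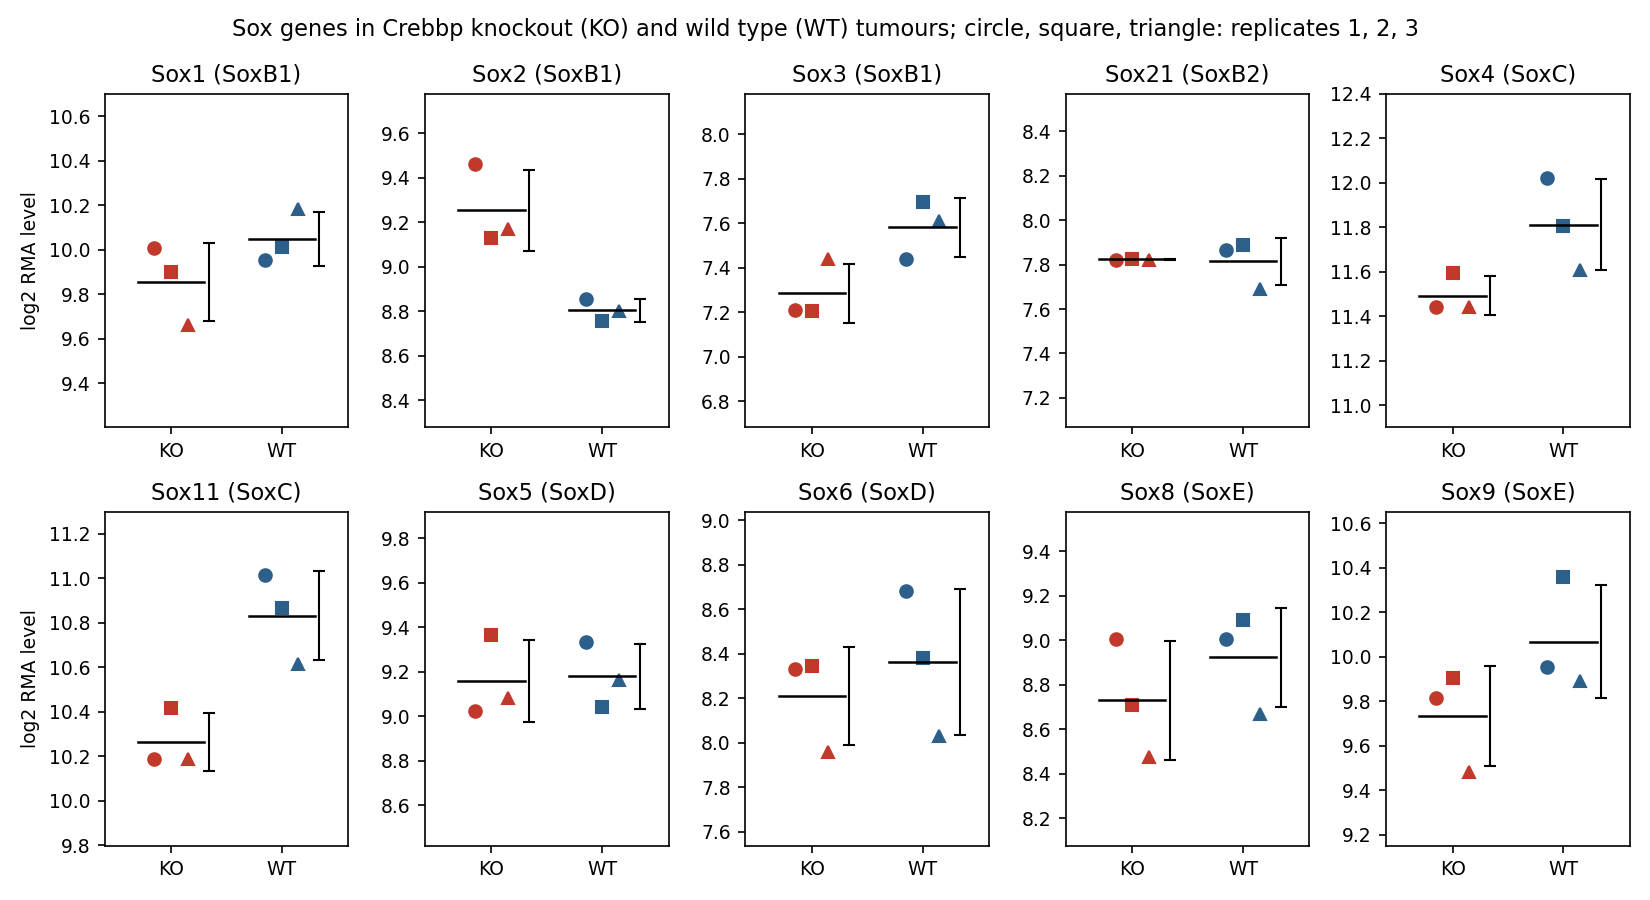
Log2 RMA level of each Sox gene in the 3 knockout (KO, red) and 3 wild type (WT, blue) arrays. Symbols are replicates 1, 2 and 3, horizontal lines are means and error bars are the SD. Each panel spans the same log2 range around the gene's own mean. Groups do not overlap for Sox2 (KO above WT), Sox4 and Sox11 (KO below WT).

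The SoxC genes Sox11 and Sox4 had the same direction, and the bases before their annotated starts are shown with those of Sox2, the gene with non-overlapping groups in the other direction. The stretches are the 250 bases before the start in RefSeq (GRCm38.p6), read 5′ to 3′ on the gene's strand, for Sox11 at chr12:27342719-27342968 (minus strand), for Sox4 at chr13:28953700-28953949 (minus strand) and for Sox2 at chr3:34649745-34649994 (plus strand). Capitals mark 2 motifs on either strand, the CCAAT box (CCAAT or ATTGG) and the E-box CAGCTG, a form bound by proneural factors.
Sox11: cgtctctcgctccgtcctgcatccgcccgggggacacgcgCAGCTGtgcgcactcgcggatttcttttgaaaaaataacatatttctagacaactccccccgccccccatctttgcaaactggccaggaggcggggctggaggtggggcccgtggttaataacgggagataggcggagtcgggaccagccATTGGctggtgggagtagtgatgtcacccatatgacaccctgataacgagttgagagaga
Sox4: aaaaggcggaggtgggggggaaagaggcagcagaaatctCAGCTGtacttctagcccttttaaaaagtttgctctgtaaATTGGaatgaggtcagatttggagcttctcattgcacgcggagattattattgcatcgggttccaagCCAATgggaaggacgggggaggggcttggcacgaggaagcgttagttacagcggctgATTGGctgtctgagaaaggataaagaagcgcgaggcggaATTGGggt
Sox2: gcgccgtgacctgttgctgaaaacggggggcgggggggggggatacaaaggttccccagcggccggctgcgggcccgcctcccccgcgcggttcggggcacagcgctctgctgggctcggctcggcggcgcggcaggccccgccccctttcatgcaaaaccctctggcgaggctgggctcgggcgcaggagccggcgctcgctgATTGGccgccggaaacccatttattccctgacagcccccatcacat

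Sox11 held 1 CAGCTG and 1 CCAAT box in this window, Sox4 held 1 CAGCTG and 4 CCAAT boxes, and Sox2 held 1 CCAAT box and 0 CAGCTG. Among the other Sox genes searched, a window of Sox6, whose groups overlapped, held a CAGCTG. That of Sox12, a SoxC gene described with Sox4 and Sox11, held 0. Sox6 had 6 windows, and so more places for a match to any motif, while 7 members had 1 window each. The CAGCTG began 210 bases before the start of Sox11 and 211 before that of Sox4. A CCAAT box was also in windows of Sox1, Sox6 and Sox12. Of 32851 such windows in the table, 13.0% held a CAGCTG and 33.8% a CCAAT box. The palindromic cyclic AMP response element TGACGTCA, the site through which CREB can recruit CREBBP, was in 0 of the windows of the 8 Sox genes with an entry (Sox1, Sox2, Sox4, Sox5, Sox6, Sox8, Sox11 and Sox21) and in 1.55% of all windows. Its core TGACG (or CGTCA), which the palindrome contains, was in a window of Sox6 among these genes and in 17.8% of all windows. The GLI site TGGGTGGTC, searched on both strands, was in 0 of their windows and in 0.225% of all windows. ACAAT (or ATTGT), 1 form of the SOX core, was in windows of Sox5 and Sox6 and in 27.7% of all. Other forms of the SOX core were not searched. The windows of Sox11, Sox4 and Sox2 had a GC content of 58.0%, 50.8% and 72.0%, and the median over all windows was 52.4%. These are matches of letters only.

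Sox11, a SOXC activator of neuronal genes that granule neuron progenitors and young neurons express, was measured by feature 17280350 (gene on chromosome 12). Its levels were 10.19, 10.41 and 10.19 in knockout tumours 1, 2 and 3, against 11.01, 10.87 and 10.62 in wild type tumours 1, 2 and 3. The highest knockout value lay below the lowest wild type value. The means were 10.26 ± 0.13 and 10.83 ± 0.20 (SD, n = 3 each), a log2 change of -0.57 (SE 0.13, limma adjusted p = 0.149) with an unadjusted 95% interval of -0.86 to -0.27. The wild type level was 1.48 times that in knockout tumours.

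Sox4, the other SOXC gene of the set, lies on chromosome 13 and was read by 2 features. On the feature used (17291525) it had 11.44, 11.59 and 11.44 in knockout tumours, against 12.02, 11.81 and 11.61 in wild type tumours. The change was -0.32 (SE 0.12, limma adjusted p = 0.314), with an interval of -0.60 to -0.04. The second feature (17286231) read lower throughout, with 8.65, 8.98 and 8.24 in knockout tumours, against 9.83, 9.71 and 9.20 in wild type tumours. Its change was -0.95 (SE 0.22, limma adjusted p = 0.129 with every feature tested), a 1.94-fold higher wild type level. The groups of neither feature overlapped, and the sizes differed: the mean of both features gave -0.64 (adjusted p = 0.173). Of 858 genes tested on chromosome 13, 8 passed the threshold, 0.932%, beside 0.207% of all genes. Sox4 was not among them, and the difference in share was not tested.

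Sox12, the remaining SoxC gene, is not among the 10 and was included with the other Sox genes as a comparison. It had 7.84, 8.05 and 7.73 in knockout tumours, against 8.47, 8.35 and 8.15 in wild type tumours, a change of -0.45 (SE 0.13, limma adjusted p = 0.201). The 3 SoxC genes thus each had non-overlapping groups, lower in knockout, as did 9.43% of all genes, and none passed the test. Their arrays also ranked in a similar order: knockout replicate 2 was the highest knockout array for Sox11, for both Sox4 features and for Sox12, and in wild type tumours replicate 1 was highest and replicate 3 lowest for each of them.

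**Figure D2:**
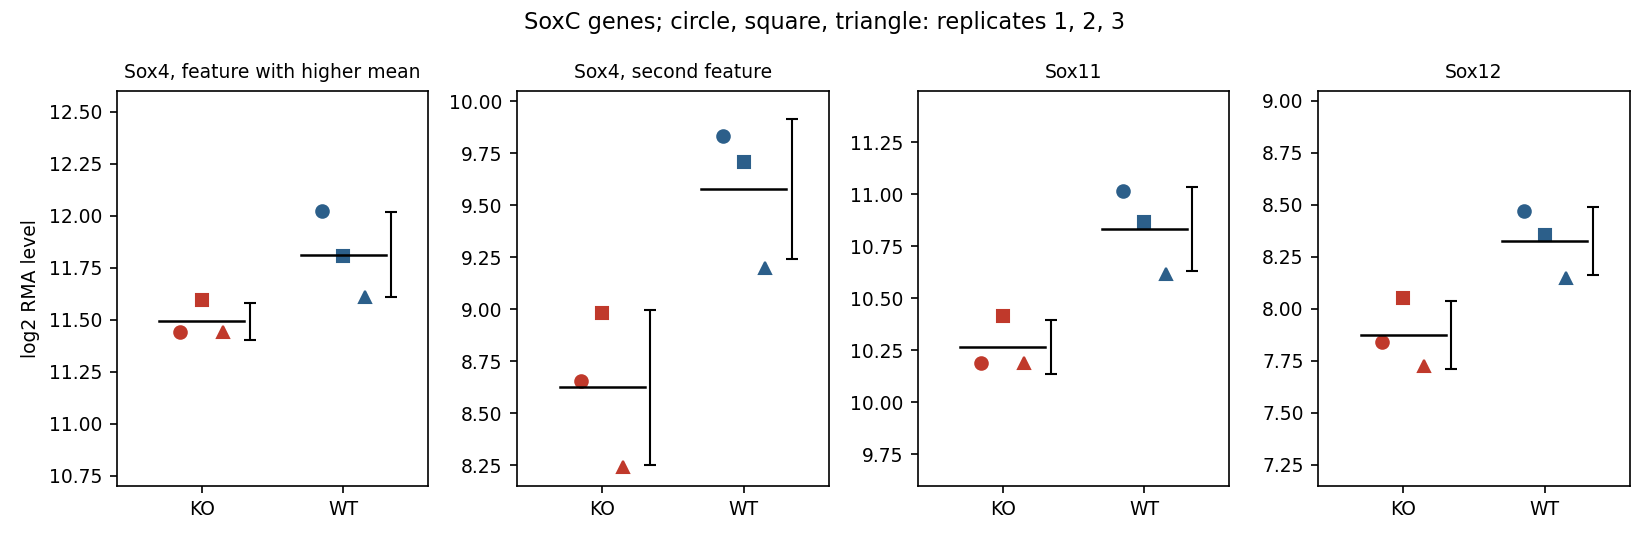
Log2 RMA level of the SoxC genes in knockout (KO, red) and wild type (WT, blue) arrays, with both Sox4 features. Symbols are replicates 1, 2 and 3, lines are means and error bars the SD, and each panel spans the same log2 range. KO lies below WT in all 4 panels, and the second Sox4 feature differs most, with a change of -0.95.

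Progenitor markers and proliferation genes were read beside the SoxC genes, and none of either list passed the threshold. The mean level of 14 granule neuron progenitor markers was 10.69 to 10.83 in knockout and 10.90 to 11.02 in wild type tumours, without overlap, and 10 of the 14 had negative changes (median -0.30, 0 past the threshold). The cyclin Ccnd2 had a change of -0.69 (SE 0.12, adjusted p = 0.0948) and the zinc finger factor Insm1 one of -0.51 (SE 0.10, adjusted p = 0.115). The hedgehog receptor and target Ptch1 (0.33, SE 0.09, adjusted p = 0.215) and the hedgehog target Gli1 (0.30, SE 0.12, adjusted p = 0.324) went the other way, with higher values in every knockout tumour. The mean of 12 proliferation genes was 10.41 to 10.69 in knockout and 10.75 to 10.87 in wild type tumours, and all 12 had negative changes (median -0.22, 0 past the threshold), with E2f1 at -0.40 and Foxm1 at -0.54. Groups did not overlap for 10 of the 14 progenitor markers (2 higher and 8 lower in knockout), beside 19.6% of all genes. The same held for 7 of the 12 proliferation genes, all lower in knockout. The part of these lists in the SoxC values was not tested.

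Among 9 candidate SOXC target genes and young neuron genes, 0 passed the threshold, 2 changes were positive and 7 negative, and the median was -0.08. Mex3a, an RNA-binding protein gene, had a change of -0.43 (SE 0.11, adjusted p = 0.184) with non-overlapping groups, and Stmn2, a regulator of microtubules in growing neurites, one of -0.48 (SE 0.20, adjusted p = 0.341) with overlap. Tubb3, the neuronal tubulin taken as a direct SOX11 target, had 11.54 in knockout and 11.60 in wild type tumours on average, a change of -0.06 (SE 0.13, adjusted p = 0.881). Dcx, the doublecortin gene of migrating neurons, had -0.21 (SE 0.14, adjusted p = 0.562), and Tead2, a Hippo pathway factor, 0.25 (SE 0.16, adjusted p = 0.546).

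Of the SoxB1 genes, Sox2 had a positive change and Sox1 and Sox3 had negative ones. Sox2 (feature 17396878, gene on chromosome 3) had 9.46, 9.13 and 9.17 in knockout tumours, against 8.86, 8.75 and 8.80 in wild type tumours. Every knockout value lay above every wild type value, and the wild type values lay within a narrow range, with an SD of 0.05 against 0.18 in knockout tumours. The change was 0.45 (SE 0.11, limma adjusted p = 0.180), a level 1.37 times that in wild type, with an interval of 0.19 to 0.71. Without knockout replicate 1, the highest array, the change was 0.35 (adjusted p = 0.366).

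Sox1, a SOXB1 gene of neural progenitors, had 10.01, 9.90 and 9.66 in knockout tumours, against 9.95, 10.01 and 10.18 in wild type tumours. Its groups overlapped and its change was -0.19 (SE 0.12, limma adjusted p = 0.527), with an interval of -0.47 to 0.08. Sox3, the X-linked SOXB1 gene, had 7.21, 7.21 and 7.44 in knockout tumours, against 7.44, 7.70 and 7.61 in wild type tumours. The groups met at knockout replicate 3 and wild type replicate 1, which were equal to 2 decimals, and the change was -0.30 (SE 0.11, limma adjusted p = 0.308). The differences between the changes of the SoxB1 genes were not tested.

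Sox21, the SOXB2 repressor that opposes SOXB1 proteins, had 7.82, 7.83 and 7.82 in knockout tumours, against 7.87, 7.89 and 7.69 in wild type tumours. The change of 0.01 (SE 0.09, limma adjusted p = 0.979) had an interval of -0.20 to 0.22. Its sign turned under other array scalings, -0.03 after a further quantile normalization and -0.02 after median centring. The second Sox21 feature (17302686), between 5.81 and 6.42 in all arrays, had a change of 0.11 (SE 0.15).

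Astrocyte and Bergmann glia markers, among which Sox2 is usually counted, were taken here without any Sox gene and read beside Sox2. The mean of 14 such markers was 9.52, 9.23 and 9.43 in knockout tumours 1, 2 and 3, against 8.62, 8.55 and 9.42 in wild type tumours 1, 2 and 3. The groups overlapped because wild type replicate 3 lay within the knockout range. Its Sox2 level, 8.80, lay between those of the other wild type tumours. In knockout tumours the marker mean and Sox2 were both highest in replicate 1 and lowest in replicate 2. In wild type tumours both were lowest in replicate 2. The relation of Sox2 to these markers was not tested. Of the 14 markers 12 had positive changes (median 0.44) and 0 passed the threshold, while Gdf10 (-0.27) and Slc1a2 (-0.16) had negative changes. Groups did not overlap for 0 of the 14, beside 19.6% of all genes. Aldoc, a glycolytic enzyme of astrocytes and Purkinje cells, had a change of 1.47 (SE 0.41, adjusted p = 0.201), and Gja1, the astrocyte connexin, one of 1.50 (SE 0.48, adjusted p = 0.243). Without wild type replicate 3 the Sox2 change was 0.45 (adjusted p = 0.174).

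**Figure D3:**
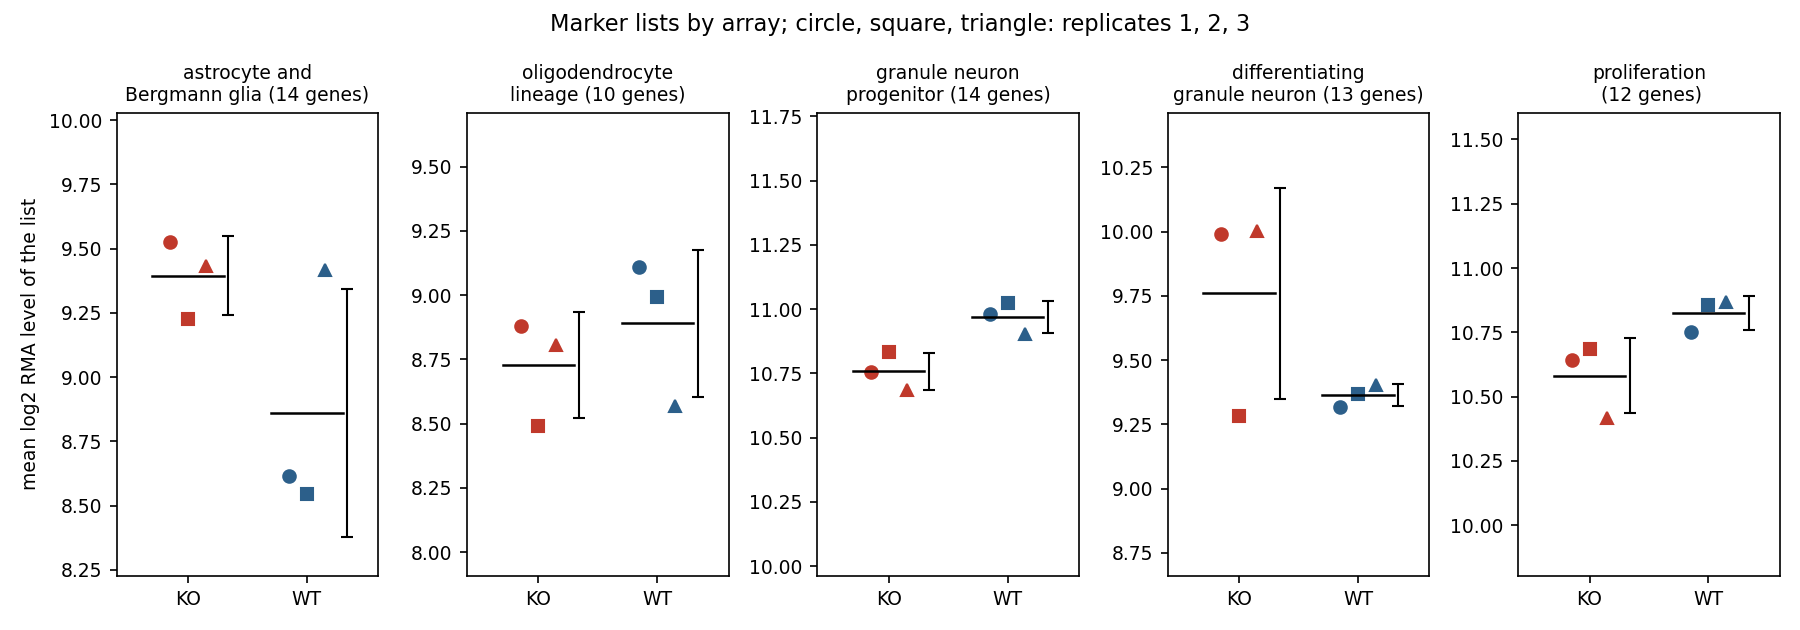
Mean log2 RMA level of each marker list in knockout (KO, red) and wild type (WT, blue) arrays, with symbols for replicates 1, 2 and 3, lines for means and bars for the SD. KO lies below WT without overlap for the progenitor and proliferation lists. In the glial list wild type replicate 3 (9.42) lies within the knockout range, and in the list of differentiating granule neurons knockout replicate 2 (9.28) lies below all wild type arrays.

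Of 10 candidate SOXB and SOXE target genes, 7 had positive and 3 negative changes (median 0.10), and 0 passed the threshold. Prom1, a membrane protein gene of progenitor cells, had a change of 0.92 (SE 0.19, adjusted p = 0.136) and Hes1, a transcriptional repressor of the Notch pathway, one of 0.52 (SE 0.18, adjusted p = 0.288), both with higher values in every knockout tumour. Nes, the intermediate filament gene of neural progenitors, had 8.89 in knockout and 9.02 in wild type tumours on average, a change of -0.12 (SE 0.24, adjusted p = 0.867). Of 9 measured partner and cooperating factors, 4 changes were positive and 5 negative (median -0.11, 0 past the threshold). The POU factor Pou3f3 had a change of -0.51 (SE 0.10, adjusted p = 0.124) and the nuclear factor Nfib one of -0.23 (SE 0.08, adjusted p = 0.294), each lower in every knockout tumour.

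The SoxE genes Sox9 and Sox8 had negative changes with overlapping groups. Sox9, which directs the switch of progenitors to glia and stays on in astrocytes and Bergmann glia, had 9.81, 9.91 and 9.48 in knockout tumours, against 9.96, 10.36 and 9.89 in wild type tumours. The change was -0.34 (SE 0.16, limma adjusted p = 0.411), with an interval of -0.71 to 0.04. Knockout replicate 2 alone lay within the wild type range. The direction was opposite to the median of the glial markers, and the difference from them was not tested. Sox8, expressed in the oligodendrocyte lineage and in astrocytes, had 9.01, 8.71 and 8.47 in knockout tumours, against 9.01, 9.09 and 8.67 in wild type tumours, a change of -0.19 (SE 0.16, limma adjusted p = 0.656). Leaving out single arrays gave Sox8 changes of -0.33 (without knockout replicate 1) to -0.07 (without knockout replicate 3).

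Sox10, the SoxE gene of oligodendrocyte lineage cells, was in the comparison group of other Sox genes and had, on the features used, the largest absolute change of all 20. It had 7.61, 7.90 and 7.58 in knockout tumours, against 8.79, 8.51 and 7.85 in wild type tumours, a change of -0.69 (SE 0.23, limma adjusted p = 0.258). The groups overlapped through wild type replicate 3. The mean of 10 measured oligodendrocyte lineage markers was 8.88, 8.49 and 8.81 in knockout and 9.11, 8.99 and 8.57 in wild type tumours. Wild type replicate 3 was again the lowest of its group, while knockout replicate 2 had the lowest marker mean and the highest Sox10 level. The relation of Sox10 to these markers was not tested. Of these markers 8 had negative changes (median -0.25, 0 past the threshold). The precursor receptor Pdgfra had a change of -0.45 (SE 0.13, adjusted p = 0.207) and the myelin regulator Myrf one of -0.62 (SE 0.23, adjusted p = 0.294), and Mobp, a myelin gene, one of 0.91 (SE 0.41, adjusted p = 0.382).

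The SoxD genes had changes smaller than their spread. Sox5 had 9.02, 9.37 and 9.08 in knockout tumours, against 9.33, 9.04 and 9.16 in wild type tumours, and the groups covered nearly the same range. Its change was -0.02 (SE 0.13, limma adjusted p = 0.959), with an interval of -0.31 to 0.27. Sox6 had 8.33, 8.35 and 7.96 in knockout tumours, against 8.68, 8.38 and 8.03 in wild type tumours. It had the widest spread of the 10 genes in wild type tumours (SD 0.33), and its change was -0.15 (SE 0.18, limma adjusted p = 0.769), with an interval of -0.57 to 0.27. Without wild type replicate 1 the Sox6 change was 0.01, and the sign of the Sox5 change turned without wild type replicate 1, knockout replicate 1 or knockout replicate 3.

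**Figure D4:**
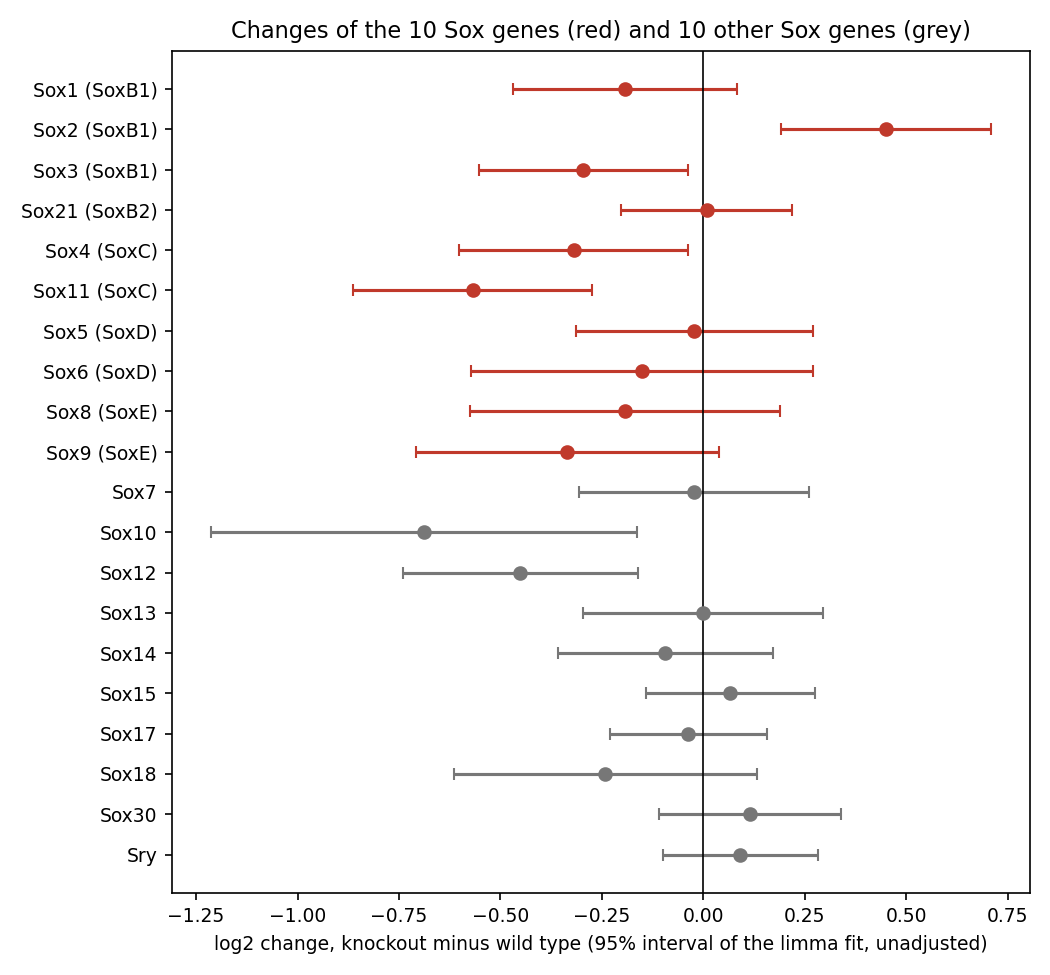
Log2 change, knockout minus wild type, of the 10 Sox genes (red) and of 10 other Sox genes (grey), with the unadjusted 95% interval of the limma fit. The intervals of Sox2, Sox3, Sox4 and Sox11 lie to 1 side of 0, and so do those of Sox10 and Sox12, but no gene passed after adjustment over all genes.

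Of the 10 other Sox genes, all measured, 0 passed the threshold, 3 had positive and 7 negative changes, and the median was -0.03. Besides Sox10 and Sox12, Sox18, a factor of blood and lymphatic endothelium, had 9.95 ± 0.12 in knockout and 10.19 ± 0.32 in wild type tumours (SD, n = 3 each), a change of -0.24 (SE 0.16, adjusted p = 0.559). Its endothelial relatives Sox7 and Sox17 had changes of -0.02 and -0.04, and Sox13, Sox14, Sox15 and Sox30 had changes of -0.00, -0.09, 0.07 and 0.12. Sry, the Y-linked testis-determining gene and founding member of the family, had 6.39 to 6.45 in knockout and 6.28 to 6.36 in wild type tumours. Arrays without Y-linked transcripts thus read 6.39 to 6.45 on this feature, above the 4.31 to 5.74 of the other absent sex-linked genes. The means of Sox7, 6.35 in knockout and 6.38 in wild type tumours, and of Sox30, 6.24 and 6.12, were no higher than this.

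**Figure D5:**
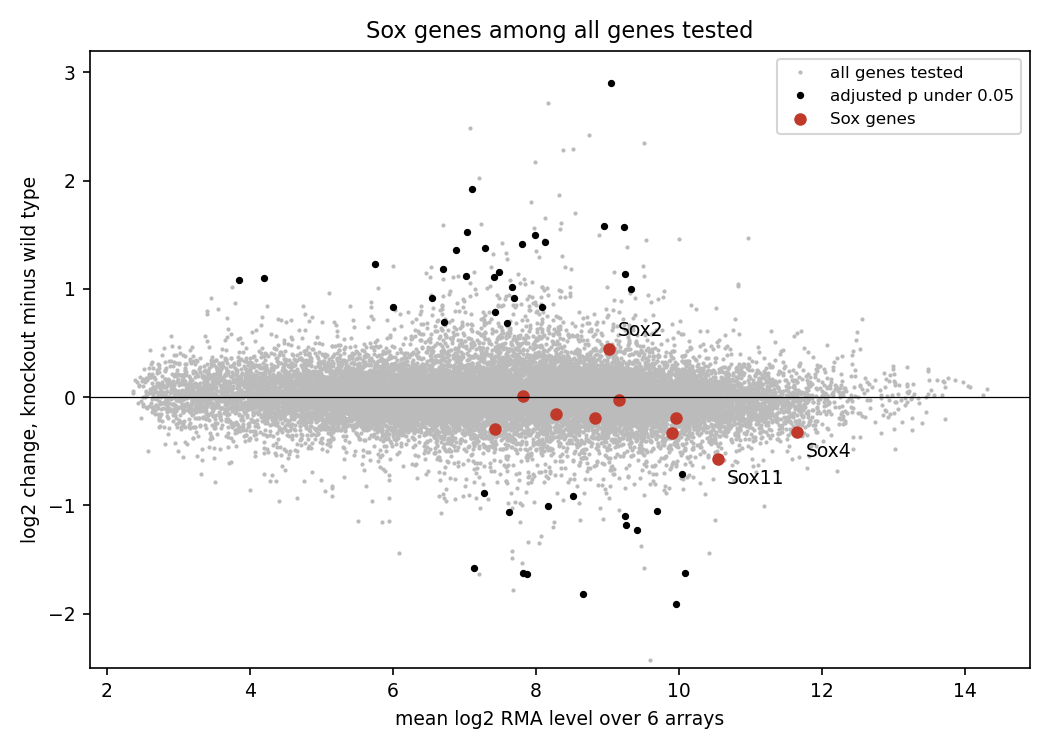
Log2 change, knockout minus wild type, against mean log2 RMA level for all 22180 genes tested (grey), genes with an adjusted p under 0.05 (black) and the 10 Sox genes (red, with Sox2, Sox4 and Sox11 named). The vertical axis leaves out 5 genes with larger changes. The Sox genes lie within the band of genes that did not pass, between -0.57 and 0.45.

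For Sox11, Sox2 and Sox3, the members with the smallest p, the genes with the nearest profiles were found by the root mean square difference of log2 values over the 6 arrays after centring each gene on its mean, leaving out the 10 Sox genes and predicted genes. For Sox11 these were Gfra1, Gprin1 and Tfec, with differences of 0.05, 0.06 and 0.06. Gfra1, a receptor for glial cell line-derived neurotrophic factor, had a change of -0.54 (SE 0.15, adjusted p = 0.199), and Gprin1, a protein gene of neurite growth, one of -0.63 (SE 0.14, adjusted p = 0.148). For Sox2 they were the phosphatase gene Dusp3, the peroxisomal gene Pex11a and the biotin ligase gene Hlcs, with differences of 0.04, 0.04 and 0.04 and changes of 0.44, 0.50 and 0.39. For Sox3 they were Lnx1, Galnt6 and Serf1, all autosomal, with differences of 0.03, 0.03 and 0.04 and changes of -0.26, -0.27 and -0.27. None of these 9 genes passed the threshold, and among 22180 genes profiles this close over 6 arrays are a description only.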

How the data were processed

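RNA of 6 tumours, grouped by their titles, was hybridised to Affymetrix whole-transcript arrays. The deposited log2 values come, per the submitters' processing notes, from RMA and the oligo package, whose version is not given. RMA equalises the distributions of arrays and compresses changes of dim features. The table held 41345 features with array medians of 6.91 to 7.00, of which 23521 had 1 gene symbol in the platform annotation, 1814 several and 16010 none. Of the genes tested, 99.2% matched RefSeq by identifier, which gave their chromosomes and gene types. No depth or detection call exists.

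The feature with the highest mean was used for each of 22180 genes, with no filter on level. The fit used lmFit and eBayes without trend (limma 3.58.1, R 4.3.3) and was checked on simulated data. That check required recovery only of its largest planted changes, well above the size of the Sox changes. Whether changes of the Sox size would be called is not given here. With 3 arrays a group, an exact permutation test cannot give a p under 0.1 and was not used. Promoter windows were read from RefSeq (GRCm38.p6).

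The label for age gives postnatal day 5, taken here as the day of induction. Named genes were the 10 members, the other Sox genes, in each list the genes past the threshold or else the 2 of smallest p, and the nearest profiles; Tubb3, Dcx, Tead2, Nes, Mobp, Ptch1, Gli1, Gdf10 and Slc1a2 were added after their values were seen. The members and lists were chosen with earlier results of these data known. Lists of targets and partners rest on general knowledge. The lists are not fully separate. Fgfr3 is in both the glial marker list and the SOXB and SOXE target list, and Pax6 in both the partner and the progenitor list. Alternatives covered scaling, dim genes, the variance model, array weights, features per gene, a replicate block, X and Y genes and leaving out each array. Same-numbered arrays did not deviate together (correlations of deviations from group means over genes of -0.03, 0.05 and 0.10), so the numbers were not taken as pairs.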

Additional observations from a re-analysis of the deposited data

How the results depend on the processing

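None of the 10 Sox genes passed an adjusted p of 0.05 under any alternative tried. The lowest value was 0.0725, for Sox11 with an intensity trend and robust variance. The alternatives were not read for the other Sox genes, Sox10 and Sox12 among them. Signs turned for Sox21 (-0.026 with a further quantile normalization, -0.020 with median centring, -0.014 with array weights), and leaving out single arrays gave ranges of -0.053 to 0.044 for Sox21, -0.13 to 0.055 for Sox5 and -0.32 to 0.0071 for Sox6, while Sox2 ran from 0.35 to 0.51, Sox11 from -0.68 to -0.48, Sox4 from -0.42 to -0.22, Sox3 from -0.37 to -0.24, Sox9 from -0.42 to -0.19 (without wild type replicate 2), Sox1 from -0.27 to -0.10 and Sox8 from -0.33 to -0.07 (both nearest 0 without knockout replicate 3). The second Sox4 feature, tested after the data were seen, gave -0.95. Crebbp (-0.50) passed once the dimmest 50% of genes were dropped (adjusted p = 0.0486) and with a trend and robust variance (adjusted p = 0.0234). The replicate block left the change of each of the 10 at its size and changed none of their calls (Sox11 -0.57, adjusted p = 0.176, and Sox2 0.45, adjusted p = 0.185). With 46 genes called in all (28 higher, 18 lower in knockout), the block gave 12 (7 and 5), a trend with robust variance 137 (59 and 78), a threshold of 0.10 131 (68 and 63), leaving out the dimmest 25% 77 (36 lower), the dimmest 50% 35 lower and array weights 28 lower. Leaving out 1 array gave 4 (1 and 3) without knockout replicate 3, 15 when knockout replicate 1 was left out, 12 (6 lower) and 18 for wild type replicates 1 and 2, 99 (50 lower) for wild type replicate 3 and 128 for knockout replicate 2 (91 higher). The cause was not tested. Sox3 has no value without X and Y genes. Signal over background limits Sox7, Sox15, Sox30 and the second Sox21 feature, which lay near the levels of absent genes.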

Other observations

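Lists of other cell types that bulk tumour tissue holds were read beside the Sox genes. Of 9 measured Purkinje cell and inhibitory neuron markers 8 had positive changes (median 0.47) and 0 passed the threshold, and their mean level was 7.45 to 8.13 in knockout and 6.87 to 7.53 in wild type tumours. The homeobox gene Lhx1 had a change of -0.49 (SE 0.11, adjusted p = 0.142) and Gad1, the enzyme that makes GABA, one of 0.47 (SE 0.11, adjusted p = 0.152). Of 13 differentiating granule neuron markers 7 had positive changes (median 0.11) and 0 passed. The proneural factor Neurod1 had a change of -1.13 (SE 0.23, adjusted p = 0.121), and Cbln3, a gene of mature granule neurons, one of 2.29 (SE 0.65, adjusted p = 0.210). Cbln3 had 10.48, 8.17 and 10.38 in knockout tumours 1, 2 and 3, against 6.80, 6.99 and 8.36 in wild type tumours, so the groups overlapped and knockout replicate 2 stood apart from the other two. The Purkinje cell list had its lowest knockout mean, 7.45, in the same array, and its groups overlapped too. Of 12 microglia and macrophage markers 11 had negative changes (median -0.33) and 0 passed, with the Fc receptor Fcgr3 at -0.79 (SE 0.14, adjusted p = 0.105) and the protease Ctss at -0.57 (SE 0.11, adjusted p = 0.121). The mean of this list was 9.21 to 9.51 in knockout and 9.53 to 9.76 in wild type tumours, without overlap. Of 10 endothelial markers 6 had positive changes (median 0.04) and 0 passed, with Tek at 0.50 (adjusted p = 0.184) and Kdr at 0.28 (adjusted p = 0.343). Groups did not overlap for 6 of the 12 microglia and macrophage markers, all lower in knockout, beside 19.6% of all genes. The count was 3 of 9 for Purkinje cell and inhibitory neuron markers, 2 of 13 for differentiating granule neuron markers and 1 of 10 for endothelial markers.

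Noncoding transcripts from Sox loci, chosen after their values were seen, were also on the array. Sox1ot, which overlaps the Sox1 locus, averaged 7.09 ± 0.07 in knockout and 7.14 ± 0.13 in wild type tumours (SD, n = 3 each), a change of -0.05 (SE 0.10, adjusted p = 0.858). Sox5os3, an opposite-strand transcript at Sox5, averaged 6.27 ± 0.23 in knockout and 6.23 ± 0.17 in wild type tumours, a change of 0.03 (SE 0.14, adjusted p = 0.943). Both means lay below the 6.39 to 6.45 of the Sry feature in arrays without Y-linked transcripts, so signal over background limits Sox5os3 too.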
